A study of Mus musculus with 6 samples.

Results

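The genes described here are 52 genes of DNA replication and S phase, followed in bulk RNA-seq of the 3 prostate lobes of the Hi-MYC mouse. They were chosen by name, as genes of origin licensing, the replicative helicase, the replication fork, nucleotide supply, chromatin copying and S phase control. The rule uses no measured value, although earlier results of these data were known when the list was made. All 52 were found among the 24908 genes of the deposited table. Averaged over the 6 libraries, 47 of them reached 1 FPKM and 5 were low, under that level: Gins3, Cdc6, Orc1, E2f2 and Ccne2. FPKM count fragments relative to transcript length and to the size of the library.

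The WT group was a male FVB mouse without the transgene. The MYC group was its male FVB littermate, heterozygous for a human c-MYC transgene that the ARR2Pb promoter drives in prostate epithelium. Both mice were 12 weeks old and ate the same purified diet. Each gave 1 library of the anterior prostate (AP), 1 of the dorsolateral prostate (DLP) and 1 of the ventral prostate (VP), made from a suspension of dissociated cells. With 1 animal per genotype, the effect of the transgene cannot be told apart from any other difference between these mice, no p-value could be computed, and every comparison below is one of single libraries. In bulk RNA, fewer cells of a type and less RNA per cell cannot be told apart.

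The libraries held between 25.6 M (WT AP) and 50.3 M (MYC AP) mapped reads, as recovered from the steps between low FPKM values. The luminal keratin Krt8 lay between 388 and 1292 FPKM in the 6 libraries. The gene listed as Myc, whose value does not separate mouse from human reads, stood at 230 FPKM in WT and 231 in MYC for AP, at 201 and 586 for DLP, and at 226 and 1696 for VP. The AP libraries differed little in this row, while MYC DLP and MYC VP were above their WT lobes. Genes of the seminal vesicle, a gland that adjoins the anterior lobe, summed to 524 FPKM over 9 markers in MYC AP and to 0.112 FPKM in WT AP. In DLP they summed to 11.3 FPKM in MYC and 0.186 in WT, with 4 of the 9 at least 2-fold higher, and in VP they were listed at 0 in MYC. The part of this tissue in the values of AP and DLP was not tested.

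Replication origins are licensed in G1 phase, when the origin recognition complex with CDC6 and CDT1 loads the MCM2-7 ring onto DNA. In S phase CDC45 and the GINS complex join the ring to form the active helicase, polymerase alpha-primase lays down primers, and the clamp loader RFC places the sliding clamp PCNA for the polymerases delta and epsilon. Many of these genes are targets of E2F transcription factors, which cyclin E and its kinase release from the retinoblastoma protein, and MYC is known to raise both the growth and the S phase entry of cells.

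The promoters of the 52 genes were read first, since many of these genes are known targets of E2F. The sequences are from RefSeq on the mouse assembly GRCm38.p6 and cover 250 bases before and 50 bases from each start of transcription. Of the 52 genes, 44 had such a sequence. The letters searched as E2F letters were TTTCCCGC, TTTGGCGC, TTTCGCGC, TTTGCCGC, TTTGGCGG and TTTCCCGG, on both strands and with overlapping matches allowed. They stood in the promoters of 21 of the 44 genes (47.7%), against 1230 of all 27025 genes with a promoter (4.55%). The E-box letters CACGTG, the core that MYC with its partner MAX binds, stood in 7 of the 44 genes (15.9%), against 8.09% of all genes. The 7 genes were Chaf1a, Fen1, Lig1, Pola2, Rfc1, Rpa1 and Tyms. CCAAT was found in 27 of the 44 (61.4%, against 41.1%), and the CHR letters TTTGAA and TTCGAA of genes of later cell cycle phases in 10 (22.7%, against 21.7%). These are shares of letters in a window of 300 bases and show no binding.

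Shown next are stretches of 6 promoters on the strand of the gene, with the E2F letters of either strand in capitals. Some of the 52 genes have more than 1 start in RefSeq, and a window before one start can lie within the gene as counted from another, so the 6 shown are those that lie outside the whole span of their gene, of 12 with letters before a start. Mcm6, Mcm5 and Chaf1a were at least 2-fold higher in MYC in both DLP and VP, whereas Rfc3, Gins3 and Rpa1 reached 2-fold in no lobe on the scale of FPKM + 1, so that the same kind of letters can be seen in both. The stretches lie at chr1:128359725-128359835 (Mcm6, minus strand), chr8:75109336-75109387 (Mcm5, plus strand), chr17:56040352-56040399 (Chaf1a, plus strand), chr5:151651209-151651238 (Rfc3, minus strand), chr8:95633498-95633545 (Gins3, plus strand) and chr11:75348573-75348620 (Rpa1, minus strand).
Mcm6: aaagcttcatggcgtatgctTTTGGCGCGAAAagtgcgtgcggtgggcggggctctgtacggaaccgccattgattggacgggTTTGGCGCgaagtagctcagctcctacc
Mcm5: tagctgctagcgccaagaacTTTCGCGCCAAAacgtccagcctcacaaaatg
Chaf1a: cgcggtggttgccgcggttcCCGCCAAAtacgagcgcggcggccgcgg
Rfc3: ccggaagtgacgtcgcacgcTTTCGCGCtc
Gins3: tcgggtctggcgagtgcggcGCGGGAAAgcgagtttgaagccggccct
Rpa1: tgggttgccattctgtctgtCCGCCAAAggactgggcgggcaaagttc

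The Mcm6 stretch holds 3 matches and that of Mcm5 holds 2, with overlapping letters on opposite strands in both, and the other 4 stretches hold 1 each. The stretches end before the start of transcription. Rfc3 has a further match at the start itself, so that its whole window holds 2. Genes with and without the letters had overlapping log2 ratios. In VP the median log2 ratio of MYC to WT was 1.21 for the 21 genes with E2F letters, with a range from 0.10 to 3.08, and 1.12 for the 23 without, with a range from 0.63 to 2.22. In DLP the medians were 0.90 and 0.94, and in AP 0.40 and 0.45. Here and throughout, the log2 ratio is that of FPKM + 1 in MYC to FPKM + 1 in WT, which makes the difference of low genes smaller than the fold of their FPKM.

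The first question was in which lobes the replication genes were higher in the MYC animal. In VP, 32 of the 52 genes were at least 2-fold higher in MYC and none was 2-fold lower. Among the 12361 genes of the table with a mean of at least 1 FPKM, 6.88% were 2-fold higher and 5.95% 2-fold lower in VP, and 3.76% of all 24908 genes were 2-fold higher. In DLP, 20 of the 52 were at least 2-fold higher and none lower, beside 6.46% higher and 3.39% lower of the 12361 genes and 3.85% higher of all genes. In AP no member reached 2-fold in either direction, where 2.05% of the 12361 genes were higher, 0.599% were lower, and 1.12% of all genes were higher. Without the 5 low genes the counts were 29 in VP, 19 in DLP and 0 in AP. These counts are on the scale of FPKM + 1, which shrinks the ratio of low genes. By FPKM alone, 15 of the 52 genes were at least 2-fold higher in AP, 33 in DLP and 39 in VP, beside 4.69%, 8.75% and 10.7% of the 12361 genes.

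The median log2 ratio of the 52 genes was 1.15 in VP, 0.93 in DLP and 0.44 in AP, against medians of 0.04, 0.03 and 0.13 over the 12361 genes. The ratio was above 0 for all 52 genes in VP, for 51 in DLP and for 46 in AP, where 53.2%, 53.5% and 66.4% of the 12361 genes were above 0. The AP ratios had the same sign for most members and were smaller. The AP count moved with the scaling, to 43 with size factors and 52 relative to Krt8 and Krt18. On the scale of FPKM without the added 1, the median fold was 3.02 in VP, 2.49 in DLP and 1.63 in AP. The exact 95% Clopper-Pearson interval of the fold, from estimated reads, lay wholly above 1 for 50 genes in VP, 50 in DLP and 35 in AP, and wholly below 1 for 1 gene, Mcm4 in AP. Such intervals cover counting error only and not the difference between mice. They were computed for the members alone, so that no share of the 12361 genes can be set beside these counts. The median level of the 52 genes went from 1.75 FPKM in WT to 5.95 in MYC in VP, from 2.23 to 5.89 in DLP and from 1.96 to 3.15 in AP.

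**Figure D1:**
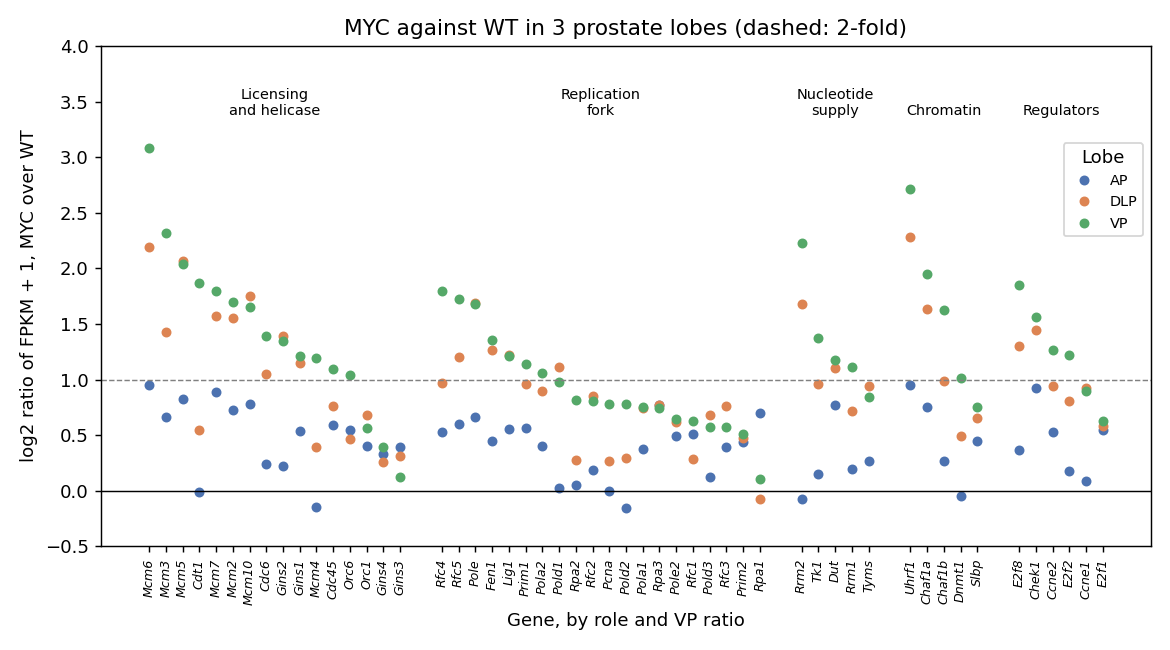
Each point is 1 gene in 1 lobe, with the log2 ratio of FPKM + 1 in MYC to WT on the vertical axis and the 52 genes, grouped by role and ordered by their VP ratio, on the horizontal axis. The AP points stay under the dashed 2-fold line, while 20 genes in DLP and 32 in VP reach it.

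Both lobes called 19 genes, which are 95% of the DLP calls and 59.4% of the VP calls. Over the 12361 genes, 349 were called higher in both lobes, or 43.7% of the DLP calls and 41.1% of the VP calls. The libraries of both lobes come from the same pair of mice, so that this overlap is not independent evidence. VP alone called 13 genes (Mcm4, Rfc4, Cdc45, Cdt1, Orc6, Pola2, Prim1, Rrm1, Tk1, Chaf1b, E2f2, Ccne2 and Dnmt1), DLP alone called Pold1, and 19 genes reached 2-fold in neither lobe. Several of these VP calls were near the threshold. With equal sums of FPKM, which left 24 VP calls beside 4.45% of the 12361 genes higher and 8.69% lower, Mcm4, Cdc45, Orc6, Pola2, Prim1, Rrm1 and Dnmt1 fell under 2-fold in VP, and so did Dut of the genes called in both lobes. Orc6, Pola2 and Dnmt1 also did with size factors. The log2 ratio was largest in VP for 37 genes, in DLP for 13 and in AP for 2 (Gins3 and Rpa1), and it was smallest in AP for 46. The exceptions to this last order were Rfc1, Gins3, Gins4, Orc6, Rpa1 and Rpa3. The order of lobes was not counted over the 12361 genes, so that these counts have no background to be read against.

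Other cell classes also differed between the genotypes in DLP and VP. Of 16 hematopoietic markers, 15 in DLP, 10 in VP and 0 in AP were at least 2-fold higher in MYC, with median log2 ratios of 1.85, 1.24 and 0.03. Their summed level went from 336 FPKM in WT to 1328 FPKM in MYC in DLP and from 159 to 479 FPKM in VP, and was 693 and 521 FPKM in AP. Cd74 was the largest part of each sum. It had 471 FPKM in WT AP and 299 in MYC AP, 229 and 856 in DLP, and 108 and 205 in VP. The sums, and the mean used as a scale below, thus rest to a large part on 1 gene, and neither was computed without it. Ptprc, which encodes the leukocyte antigen CD45, went from 3.18 to 11.4 FPKM in DLP, from 1.91 to 4.72 in VP and from 4.59 to 4.62 in AP. Leukocytes can divide and can carry replication transcripts, and their part in the results was not tested. When each library was set relative to the mean of the hematopoietic markers, an alternative chosen after seeing the data, the median log2 ratio of the 52 genes was -0.37 in DLP and 0.0053 in VP, while that of the 12361 genes was -1.49 and -1.13. In AP it was 0.74, against 0.48 for the 12361 genes. On this scale 11 members were at least 2-fold lower and 0 higher in DLP, where 79% of the 12361 genes were lower and 0.785% higher. In VP 1 member was lower and 2 higher, beside 58.9% and 0.769%, and in AP 11 were higher, beside 5.99%. The luminal keratins Krt8 and Krt18 moved less, at -0.04 and -0.29 in AP, 0.25 and 0.22 in DLP, and -0.23 and -0.29 in VP. Fibroblast markers had median log2 ratios of 0.48, -0.12 and -1.32 in AP, DLP and VP, but in DLP they went both ways, from -1.81 (Dpt) to 2.03 (Col3a1), with 2 of 10 at least 2-fold higher and 3 lower. Smooth muscle markers had medians of 0.60, -0.81 and -0.81, basal markers -0.41, 0.32 and -0.59 with a spread in AP from -1.44 (Krt17) to 1.57 (Trp63) and in DLP from -0.56 (Dst) to 1.59 (Trp63), and endothelial markers between 0.05 and 0.13.

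Of the 16 genes of licensing and the helicase, 13 were at least 2-fold higher in MYC in VP, 9 in DLP and 0 in AP, with median log2 ratios of 1.37, 1.10 and 0.54. They include the gene with the largest VP log2 ratio of the 52 on the scale of FPKM + 1, although by fold of FPKM Uhrf1 and Mcm10 were above it. Mcm6 (chr1:128331575-128359705 in GRCm38.p6), a subunit of the helicase ring whose promoter holds the 3 matches shown above, had 1.90, 1.65 and 0.737 FPKM across AP, DLP and VP of WT, and 4.62, 11.1 and 13.7 FPKM across these lobes of MYC. WT VP was the lowest of the 6 libraries and MYC VP the highest, and the 3 MYC libraries lay above the 3 WT libraries. The fold in VP was 18.6, with a counting interval of 15.4 to 22.3, and the log2 ratios were 3.08 in VP, 2.19 in DLP and 0.95 in AP.

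The other ring subunits had the same order of genotypes, with 1 exception. Mcm2 had 1.91, 2.62 and 2.96 FPKM for AP, DLP and VP of the WT mouse and 3.81, 9.63 and 11.9 FPKM for the same lobes of the MYC mouse. Mcm3 had 2.17, 2.32 and 0.961 FPKM in the WT libraries in that order and 4.01, 7.93 and 8.77 FPKM in the MYC libraries. In both genes every MYC library was above every WT library, and MYC AP was the lowest of the MYC libraries. Mcm5, at 1.12, 0.930 and 0.927 FPKM in WT and 2.77, 7.09 and 6.91 FPKM in MYC, and Mcm7, at 3.31, 4.13 and 2.82 FPKM in WT and 6.96, 14.2 and 12.3 FPKM in MYC, showed this order too. The exception was Mcm4 (chr16:15623897-15637400), which had 10.9, 7.32 and 3.08 FPKM over the AP, DLP and VP lobes of WT and 9.77, 9.94 and 8.34 FPKM over the 3 MYC lobes. Its WT AP level was the highest of the 6 libraries, so that its log2 ratio rose from -0.15 in AP to 0.39 in DLP and 1.19 in VP.

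The subunits MCM2 to MCM7 form the ring in equal numbers, and their transcripts were closer to each other in the MYC libraries. FPKM are per length, so that the 6 transcripts can be set side by side within a library. The highest subunit was 9.71 times the lowest in WT AP, 7.88 times in WT DLP and 4.18 times in WT VP, with Mcm4 the highest in all 3. For the MYC lobes in that order the ratio was 3.53, 2.0 and 1.98. The coefficient of variation over the 6 subunits was between 59.8% and 103% in the WT libraries and, for MYC, 48.6% in AP, 25.2% in DLP and 25.8% in VP. Mcm4 remained the highest subunit in MYC AP, whereas Mcm7 led in MYC DLP and Mcm6 in MYC VP. A lower coefficient in MYC was not particular to this ring. In AP, DLP and VP it went from 65.3%, 57.7% and 59.2% in WT to 49.6%, 48.6% and 30.1% in MYC for RFC. For GINS it went from 115%, 116% and 135% to 103%, 71.8% and 86.2%. Polymerase alpha-primase changed little, from 30.3%, 41.3% and 59.8% to 32.7%, 40.3% and 57.1%. For the RPA genes it rose in AP, from 52.4% to 64.6%, and fell in DLP and VP.

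**Figure D2:**
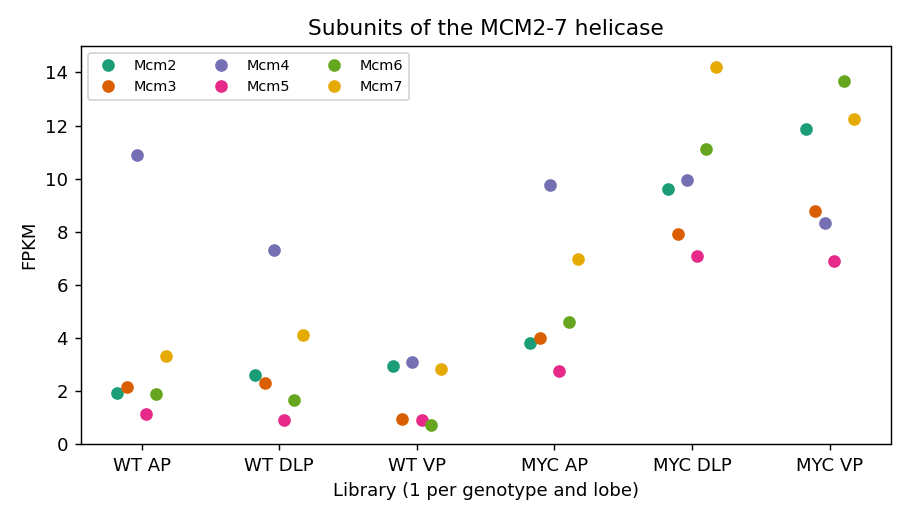
The level of each subunit of the MCM2-7 helicase is plotted in FPKM for each of the 6 libraries, 1 per genotype and lobe, with a small sideways offset per gene. Mcm4 stands above the others in WT AP and WT DLP, and the 6 genes lie between 6.91 and 14.2 FPKM in MYC DLP and MYC VP.

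Among the loaders and activators of the ring, Mcm10, Cdc6 and Orc1 were under 1 FPKM in all 3 WT libraries. Mcm10, which takes part in starting the helicase, had 0.250, 0.199 and 0.128 FPKM across AP, DLP and VP of WT and 1.15, 3.03 and 2.55 FPKM across these lobes of MYC. Its fold in VP was 19.9, with a counting interval of 11 to 43.8. Cdc6, the loader of the ring, had 0.337, 0.230 and 0.123 FPKM in the WT libraries and 0.583, 1.54 and 1.95 FPKM in the MYC libraries. In both genes all 3 MYC libraries were above all 3 WT libraries. Orc1, the largest subunit of the origin recognition complex, was estimated at 2 reads in WT VP (0.0287 FPKM) against 0.520 FPKM in MYC VP, a fold of 18.1 with an interval of 4.24 to 146, and its log2 ratio of 0.56 stayed under 2-fold on the log2 scale of FPKM + 1.

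Cdt1, the licensing factor that works with CDC6, differed in VP more than in the other lobes. It had 3.45, 5.18 and 1.90 FPKM for AP, DLP and VP of the WT mouse and 3.42, 8.02 and 9.61 FPKM for the same lobes of the MYC mouse. The 2 AP libraries differed by less than counting error, with a fold of 0.993 and an interval of 0.825 to 1.20, whereas the fold in VP was 5.04, with an interval of 4.30 to 5.95. Cdc45, the helicase partner, and Orc6 reached 2-fold in VP alone, with log2 ratios of 1.10 and 1.04, which equal sums of FPKM lowered to 0.94 and 0.84.

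The 4 GINS genes did not move together. Gins1 had 0.800, 1.13 and 0.708 FPKM over the AP, DLP and VP lobes of WT and 1.61, 3.72 and 2.96 FPKM over the 3 MYC lobes. Gins2 had 2.12, 2.14 and 1.04 FPKM in the WT libraries and 2.64, 7.22 and 4.18 FPKM in the MYC libraries. Both were at least 2-fold higher in DLP and VP, with every MYC library above every WT library. Gins3 and Gins4 were among the 3 members nearest 0 in VP, with log2 ratios of 0.12 and 0.39, and in DLP they had 0.31 and 0.26. In VP, Gins3 went from 0.474 FPKM in WT to 0.606 in MYC, a fold whose counting interval of 0.870 to 1.92 includes 1. In all 6 libraries Gins4 was the highest and Gins3 the lowest of the 4, by 9.70 to 23.5 times.

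Of the 20 genes of the replication fork, 7 were at least 2-fold higher in VP, 5 in DLP and 0 in AP, and the median log2 ratios were 0.79, 0.77 and 0.44. The fork genes with the largest VP ratios were Rfc4 and Rfc5 of the clamp loader and Pole, the catalytic subunit of the leading strand polymerase epsilon. Rfc5 had 1.55, 1.74 and 1.93 FPKM across AP, DLP and VP of WT and 2.87, 5.30 and 8.65 FPKM across these lobes of MYC. Pole had 0.429, 0.410 and 0.247 FPKM in the WT libraries and 1.27, 3.54 and 2.99 FPKM in the MYC libraries, a VP fold of 12.1 with an interval of 8.48 to 17.9. In both genes the genotypes did not overlap. Rfc4 had a log2 ratio of 1.80 in VP and of 0.97 in DLP, just under the 2-fold line.

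The enzymes that finish the lagging strand were higher in MYC as well. Fen1, the flap endonuclease that removes primers, had 1.24, 1.38 and 2.60 FPKM for AP, DLP and VP of the WT mouse and 2.05, 4.72 and 8.22 FPKM for the same lobes of the MYC mouse. It was the member with the largest gap between MYC AP and MYC VP, at -1.59 on the log2 scale of FPKM + 1, and its MYC AP level was below that of WT VP. Lig1, the ligase that seals the fragments, had 2.84, 2.87 and 2.66 FPKM in the WT libraries and 4.64, 8.0 and 7.49 FPKM in the MYC libraries, with no overlap of the genotypes.

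The fork genes with the highest mean levels, Pcna and Rpa1, reached 2-fold in no lobe. Pcna, the sliding clamp and the highest of the 52 genes in every library, had 62.1, 58.0 and 33.2 FPKM over the AP, DLP and VP lobes of WT and 61.8, 70.0 and 57.9 FPKM over the 3 MYC lobes. The VP fold was 1.74, with an interval of 1.62 to 1.88, and the 2 AP libraries had a fold of 0.996, with an interval of 0.929 to 1.07. Pcna and Tyms have pseudogene copies in the mouse genome, so that their levels are uncertain to the extent that reads were shared with them. Rpa1, the large subunit of the complex that coats single-stranded DNA (chr11:75300259-75348454), had 11, 17.8 and 12.9 FPKM across AP, DLP and VP of WT and 18.5, 16.9 and 13.9 FPKM across these lobes of MYC. It was the member nearest 0 in VP, at a log2 ratio of 0.10, and the 1 member below 0 in DLP, at -0.07, while AP had 0.70. Its partners Rpa2 and Rpa3 had VP ratios of 0.82 and 0.75. Rpa1 was the highest and Rpa2 the lowest of the 3 in all 6 libraries.

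Other primase and polymerase subunits differed among themselves. Polymerase alpha-primase kept 1 order at its ends, with Prim1 the highest and Pola1 the lowest of its 4 subunits in all 6 libraries, by 2.19 to 4.35 times. Prim1 and Pola2 reached 2-fold in VP, at 1.14 and 1.06, while Pola1 and Prim2 did not, at 0.75 and 0.51. Pold1, the catalytic subunit of polymerase delta, was on the threshold, with a log2 ratio of 1.11 in DLP and 0.98 in VP, and its 2 AP libraries differed little at 0.02. Pold2, an accessory subunit, had the lowest AP ratio of the 52 genes, -0.16, with a counting interval of its fold that includes 1 (0.727 to 1.08).

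The 5 genes of nucleotide supply included the gene with the widest difference between lobes in WT. Of the 5, all but Tyms were at least 2-fold higher in VP, and 2, Rrm2 and Dut, in DLP. Rrm2, the small subunit of ribonucleotide reductase (chr12:24708254-24714146), had 15.7 FPKM in WT AP, 2.98 in WT DLP and 1.88 in WT VP, and 14.9, 11.7 and 12.5 FPKM for the same lobes of the MYC mouse. WT AP was the highest of the 6 libraries, and the MYC libraries lay within 1.27-fold of each other. The log2 ratio was therefore -0.07 in AP, 1.68 in DLP and 2.22 in VP. WT AP exceeded WT VP 8.31-fold, with a counting interval of 6.56 to 10.6. Its partner Rrm1 had 7.07, 5.03 and 3.37 FPKM for AP, DLP and VP of the WT mouse, an order of lobes like that of Rrm2 at smaller size, and 8.25, 8.93 and 8.47 FPKM in the MYC libraries.

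The other nucleotide genes had no excess in WT AP. Dut, which removes dUTP from the nucleotide pool, had 2.0, 2.43 and 2.0 FPKM over the AP, DLP and VP lobes of WT and 4.12, 6.37 and 5.77 FPKM over the 3 MYC lobes, with the genotypes apart in every lobe. Tk1, thymidine kinase, had VP and DLP ratios of 1.38 and 0.96, and Tyms, thymidylate synthase, had 0.84 and 0.94.

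Of the 5 chromatin genes, 4 were at least 2-fold higher in VP and 2 in DLP, and their median log2 ratios were 1.63 in VP, 0.98 in DLP and 0.45 in AP. Uhrf1 (chr17:56303337-56323486), which brings the maintenance DNA methyltransferase to newly copied DNA, had 0.777, 0.444 and 0.301 FPKM across AP, DLP and VP of WT and 2.42, 6.02 and 7.54 FPKM across these lobes of MYC. AP was the highest lobe in WT, at 2.58 times VP with an interval of 1.57 to 4.23, and the lowest in MYC. Its fold was 25.1 in VP, with an interval of 17.3 to 36.9, 13.6 in DLP, with an interval of 9.94 to 19.1, and 3.12 in AP, with an interval of 2.22 to 4.43, and its DLP log2 ratio of 2.28 was the largest of the 52 genes there. Chaf1a, the large subunit of the histone chaperone CAF-1, had 0.504, 0.416 and 0.382 FPKM in the WT libraries and 1.53, 3.39 and 4.35 FPKM in the MYC libraries. Its WT lobes were not apart beyond counting error, with a fold of AP over VP of 1.32 and an interval of 0.828 to 2.08. Its partner Chaf1b had ratios of 1.63 in VP, 0.98 in DLP and 0.26 in AP.

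Dnmt1, the maintenance methyltransferase itself, and Slbp, which binds the stem-loop of histone transcripts, were the more abundant chromatin genes and had the smallest log2 ratios of the 5 in DLP and VP. Dnmt1 had 9.49, 8.44 and 5.05 FPKM for AP, DLP and VP of the WT mouse and 9.15, 12.3 and 11.2 FPKM for the same lobes of the MYC mouse. Its VP fold was 2.22, with an interval of 2.08 to 2.38, while the AP fold was 0.964, with an interval of 0.900 to 1.03. Slbp had log2 ratios of 0.75, 0.66 and 0.45 in VP, DLP and AP.

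Of the 6 regulators, 4 were at least 2-fold higher in VP and 2 in DLP. Chek1, the checkpoint kinase that restrains origin firing under replication stress, had 0.551, 0.531 and 0.296 FPKM over the AP, DLP and VP lobes of WT and 1.94, 3.17 and 2.83 FPKM over the 3 MYC lobes. E2f8, a repressor of the E2F family that is itself expressed in S phase, had 0.602, 0.373 and 0.344 FPKM in the WT libraries and 1.06, 2.39 and 3.85 FPKM in the MYC libraries. In both genes the genotypes did not overlap. Ccne2 and E2f2, both low, had VP ratios of 1.26 and 1.22, and Ccne1 had 0.89 in VP and 0.92 in DLP.

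E2f1, an activator of the family, had another pattern of lobes than most members. It had 0.377, 1.63 and 2.14 FPKM across AP, DLP and VP of WT and 1.01, 2.94 and 3.86 FPKM across these lobes of MYC, so that AP was the lowest and VP the highest lobe in both genotypes. Its log2 ratios were 0.55, 0.58 and 0.63 in AP, DLP and VP on the scale of FPKM + 1, while its folds of FPKM were 2.68 in AP, with an interval of 1.71 to 4.48, 1.80 in DLP and 1.80 in VP. Its WT DLP and WT VP levels lay above its level in MYC AP.

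The levels across lobes within 1 genotype were compared next. Among the WT libraries, 35 of the 52 genes were higher in AP than in VP and 44 higher in DLP than in VP, with median log2 ratios of 0.19 and 0.20. The median over the 12361 genes was 0.01 for AP against VP and 0.13 for DLP against VP, so that for DLP these genes leaned the same way. The share of them that was higher was not computed, here or for the MYC libraries below. Between WT AP and WT VP, 3 members differed at least 2-fold, Mcm4 and Rrm2 higher in AP and E2f1 lower, where 18.2% of the 12361 genes differed in either direction. Between WT DLP and WT VP the members at 2-fold were Mcm4 and Cdt1, both higher in DLP, beside 8.92% of the 12361 genes in either direction, and between WT AP and WT DLP it was Rrm2, at a log2 ratio of 2.07, beside 5.16%.

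In the MYC libraries AP was the low lobe. Of the 52 genes, 8 were higher in MYC AP than in MYC VP and 13 were at least 2-fold lower, with a median log2 ratio of -0.58, against a median of 0.02 over the 12361 genes, of which 8.98% were 2-fold lower in AP and 25.1% differed 2-fold in either direction. The 13 genes were Mcm2, Mcm5, Mcm6, Rfc4, Rfc5, Cdt1, Tk1, Fen1, Chaf1a, Chaf1b, Uhrf1, E2f1 and E2f8. Against MYC DLP the median of MYC AP was -0.61, and 8 members were 2-fold lower, where the median of the 12361 genes was -0.07, 4.54% were 2-fold lower in AP and 8.03% differed in either direction. MYC DLP and MYC VP, by contrast, did not differ 2-fold for any member, with log2 ratios from -0.69 (Fen1) to 0.67 (Gins2) and a median of 0.11, where 17.6% of the 12361 genes differed. The gene listed as Myc was at 586 FPKM in MYC DLP and 1696 FPKM in MYC VP, and the hematopoietic markers summed to 1328 and 479 FPKM. Their part in the levels of the members was not tested.

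**Figure D3:**
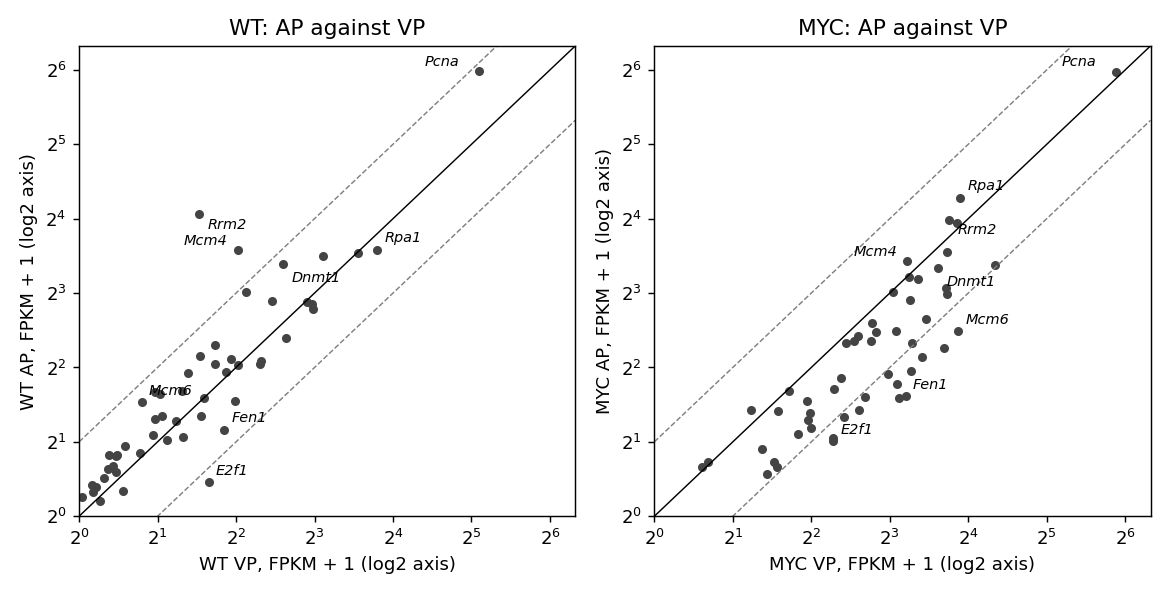
FPKM + 1 in AP is plotted against FPKM + 1 in VP for the 52 genes, in the WT libraries on the left and the MYC libraries on the right, both axes being log2 and the dashed lines marking 2-fold. Rrm2 and Mcm4 lie above the upper line in WT, and in MYC 13 genes lie below the lower line and none above the upper.

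**Figure D4:**
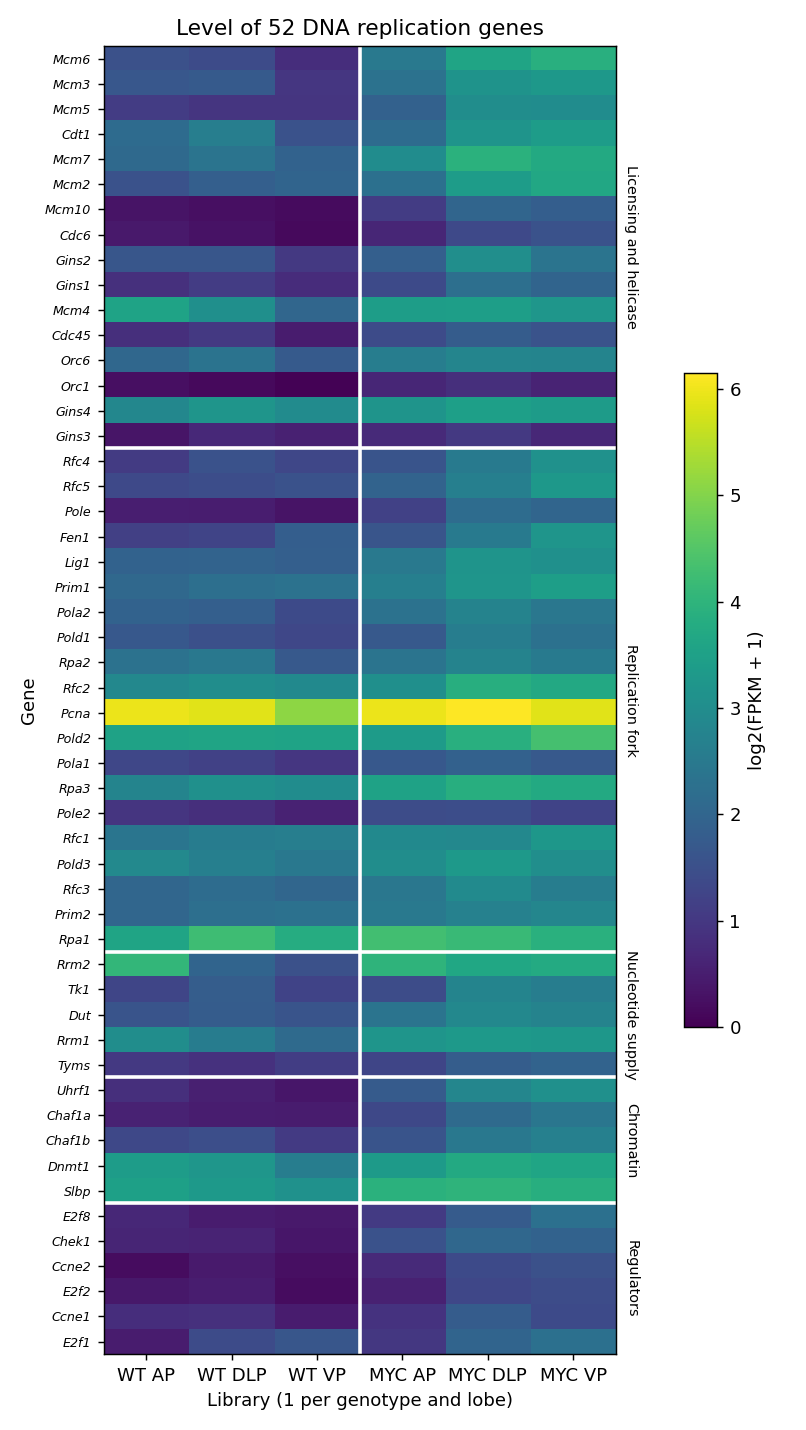
The level of each of the 52 genes is shown as log2(FPKM + 1) in the 6 libraries, with the WT libraries left and the MYC libraries right of the white line and genes grouped by role. Pcna is the brightest row, and 19 genes lie under 1 FPKM in WT VP against 2 in MYC VP.

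A further 72 replication genes that are not among the 52 were read from lists of the same roles and of fork repair. Of the 72, 18 were at least 2-fold higher in MYC in VP, 8 in DLP and 0 in AP, beside 6.88%, 6.46% and 2.05% of the 12361 genes, and none was 2-fold lower in any lobe. With a pseudocount of 0.1 in place of 1 the counts of higher genes were 32, 24 and 10, beside 10.1%, 8.41% and 4.23%. Their median log2 ratios were 0.48, 0.37 and 0.25, smaller than those of the 52 genes. Among the largest in VP were Hells, a chromatin remodeller, at 2.01, Dctpp1, which clears modified nucleotides, at 1.83, Fam111a, a protease of the fork, at 1.73, Skp2, which marks cell cycle inhibitors for degradation, at 1.68, and Asf1b, a histone chaperone, at 1.63. The genes of DLP included Hells, Dctpp1, Fam111a, Asf1b, Clspn, Dbf4 and Cdc7. Dbf4 and Cdc7 form the kinase that fires licensed origins, and their VP ratios were 1.21 and 1.14. The lowest of the 72 was Wee1, an inhibitor of entry into mitosis, with -0.88 in AP, -0.93 in DLP and -0.78 in VP.

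Markers of dividing cells were higher in the same lobes. All 6 genes of this list (Mki67, Top2a, Ccnb1, Ccna2, Cdk1 and Birc5) were at least 2-fold higher in DLP and in VP, and 3 in AP, with median log2 ratios of 2.67, 2.57 and 1.0. Mki67, the marker of cycling cells, had 0.693, 0.721 and 0.484 FPKM for AP, DLP and VP of the WT mouse and 3.60, 10.4 and 12.8 FPKM for the same lobes of the MYC mouse. Its WT AP level did not stand out as those of Rrm2 and Mcm4 did.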

How the data were processed

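Bulk RNA-seq of 6 libraries, 1 per genotype and lobe, was re-analysed. Genotype and lobe come from the sample titles, whose animal codes show that the 3 libraries of a genotype share 1 mouse. Libraries were poly(A)-selected and stranded, with single-end reads of 75 bases. The submitters' processing notes name bcl2fastq 2.18, STAR, Cufflinks and the build mm10. The gene annotation, and the treatment of reads shared with pseudogene copies such as those of Pcna and Tyms, are not given in the sources used here. The authors deposited 1 table of FPKM. The study's methods speak of read counts and a count model, yet the table as deposited holds fractional values, so none was fitted.

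Log2 ratios used FPKM + 1 with values as deposited, a 2-fold threshold, and as background all genes or those averaging 1 FPKM or more. The value of 1 read was recovered from single-exon genes longer than 600 bases at under 0.3 FPKM. Between 27.5% and 49.7% of 147 to 191 low values per library lay within 0.03 of a whole read. Reads per gene were estimated from depth, FPKM and the mean GENCODE M1 transcript length less 200 bases. These lengths are of another annotation than that of the table, so that the intervals are approximate. Gene positions and promoters are from RefSeq on GRCm38.p6.

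Members and lists were chosen with earlier results of these data known. Every member at least 2-fold different in 2 lobes is given in all 6 libraries, the other members by ranges and ratios, with the 3 nearest 0 in VP. Other members given in all libraries were singled out after their values were seen, namely Mcm4, Cdt1, Pcna, Rpa1, Rrm1, Dnmt1 and E2f1. Of the other replication genes, the rule names the 6 with the largest VP ratio, and Clspn, Dbf4, Cdc7 and Wee1 were named after their values were seen. Some genes that the rules name are not reported here.

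The alternatives rescaled the libraries by median-of-ratios size factors or to equal FPKM sums, with and without the 20 highest genes, or used the ratio to the mean of Krt8 and Krt18, a pseudocount of 0.1, minimum means of 1 and 3 FPKM, and thresholds of 1.5-fold and 4-fold. Chosen after seeing the data were a minimum of 10 estimated reads, scaling by a trimmed mean and the ratio to the mean of 16 hematopoietic markers. The scripts were tested on simulated data with known answers. The tools were matplotlib 3.10.9, scipy 1.17.1, pandas 2.3.3 and numpy 2.4.6 under Python 3.11.15.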

Additional observations from a re-analysis of the deposited data

Results flagged for a closer look

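Of the 52 genes, 4 were at least 2-fold higher in MYC in VP, or in DLP and VP, and below 0 in AP. This joint rule was not counted over the other genes of the table, so that the 4 have no background to be read against. For Rrm2 the log2 ratio in VP exceeded that in AP by 2.30, and that in DLP exceeded it by 1.75. The ratio in VP exceeded that in AP by 1.88 for Cdt1, by 1.34 for Mcm4 and by 1.06 for Dnmt1. With 1 library per genotype and lobe these differences between lobes were not tested. The AP ratios of the 4 genes were small, from -0.15 for Mcm4 to -0.01 for Cdt1, and the counting interval of the AP fold was wholly below 1 for Mcm4 (0.821 to 0.977) and included 1 for Rrm2 (0.835 to 1.08), Cdt1 and Dnmt1. Relative to Krt8 and Krt18 all 52 genes, these 4 included, were above 0 in AP, so that the sign in AP depends on the scaling. In VP, Dnmt1 fell under 2-fold with size factors, at 0.92, and with equal sums of FPKM, at 0.80, and Mcm4 with equal sums, at 0.99. No member was above 0.58 in one lobe and below -0.58 in another.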

How the results depend on the processing

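No paired analysis was possible because each genotype and lobe has 1 library, and for the same reason no library could be left out. With a pseudocount of 0.1, 14 genes in AP and 33 in DLP were at least 2-fold higher, beside 4.23% and 8.41% of the 12361 genes, and the medians rose to 1.27 in DLP and 1.55 in VP. Relative to Krt8 and Krt18, 4 genes in AP were 2-fold higher, beside 3.08%, while the median of the 12361 genes moved to 0.28 in AP, -0.16 in DLP and 0.27 in VP. Among the 31 members with a mean of at least 3 FPKM, 11 in DLP and 19 in VP were 2-fold higher, beside 5.1% and 6.69% of the 9753 genes at that level. At 1.5-fold, 15 genes in AP and 39 in DLP were higher, beside 7.53% and 13.4%, and at 4-fold 3 in DLP and 5 in VP, beside 1.59% and 1.2%. Relative to the hematopoietic markers, the median was -0.37 in DLP, a reversed sign, 0.0053 in VP and 0.74 in AP, and the cause was not tested. Cd74 is the largest part of that mean, and the scale without it was not computed. Equal sums of FPKM moved the median of the 12361 genes in VP from 0.04 to -0.15, with 24 members at 2-fold and a member median of 0.96. WT AP has the fewest reads, and the lowest estimates were 2 reads in WT VP (Orc1), 5 in WT AP (Ccne2) and 7 in WT DLP (Orc1).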
